A study of Homo sapiens with 6 samples.

Results

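Enzymes that make, phosphorylate and reduce NAD were examined in a pooled CRISPR knockout screen of HAP1 cells, a near-haploid human leukaemia line. The genes were chosen by name around NAMPT, which had been picked out by its higher guide abundance in SETD2-mutant than in parental cells in earlier results of these data. The other members were also chosen with those results known. Guides were found by the gene column of the count table. Of 8 listed genes, 7 were present, each with 10 guides, out of 7093 genes in the table, and all 7 passed a filter on library counts alone. They were NAMPT, NMNAT1, NMNAT3, NADSYN1, QPRT, NADK and NNT. NMNAT2 was not analysed here.

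The screen had 2 samples of SETD2-mutant HAP1 cells, 2 of parental HAP1 cells and 2 of the guide library. SETD2 is a histone H3 methyltransferase that acts along transcribed genes. Per the labels' protocols, each line was infected 1 time at a multiplicity of 0.7 and only then divided into replicates, and the cells grew in puromycin for 12 doublings. All groups carry the same guide library, the SETD2-mutant line is labelled by genotype only, with nothing on clones, and the source of the library samples is not described. Replicates of a line therefore share 1 infection, and the p-values cover just the spread of these samples, which may be technical.

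NAD is the hydride carrier of glycolysis and respiration and is also consumed by PARPs and sirtuins, which release nicotinamide. Human cells rebuild it from nicotinamide through NAMPT, from nicotinic acid through NADSYN1, or from tryptophan through QPRT, and each route passes through an NMNAT adenylyltransferase. NADK phosphorylates NAD to NADP, and NNT uses the proton gradient of mitochondria to move hydride from NADH to NADP. In a knockout screen, guides against a gene that cells need become rarer as the cells divide.

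Total counts were 25082426 and 33878004 for SETD2-mutant cells, 38197301 and 34003792 for parental cells, and 38428425 and 34679351 for the library. The lowest count of any guide of the 7 genes was 42, and the lowest library count was 123. Replicates of the lines differed by more than counting error, with a chi-square per degree of freedom of 12.9 in SETD2-mutant, 14.1 in parental and 1.37 in library samples. Dropout of essential genes was deeper in SETD2-mutant cells, where 51 cytosolic ribosomal protein genes had a median log2 change from library of −4.13, against −3.58 in parental cells. Guides against SETD2 itself had a mean log2 change of −0.61 in SETD2-mutant and −1.12 in parental cells, which checks the labels only through growth.

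Guides against NAMPT, the salvage step, and NMNAT1, the nuclear adenylyltransferase, lay slightly above their library abundance in SETD2-mutant cells (below it with dummyguide scaling) and below it in parental cells. Guides against NADK lay, on the mean over guides, between library and parental levels in SETD2-mutant cells. For the other 4 genes the lines lay closer together. Changes from library are relative to the bulk of guides: scaling on 100 so-called dummyguide entries (not explained in the labels) moved the median of all genes by −0.92 in SETD2-mutant cells, −0.78 in parental cells and −0.15 between the lines. Abundance is given below as counts scaled to sequencing depth (CPM), summed over the 10 guides of a gene. Changes are means over guides on the log2 scale with the standard error (SE) over guides, and guides of 1 gene share their target.

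**Figure D1:**
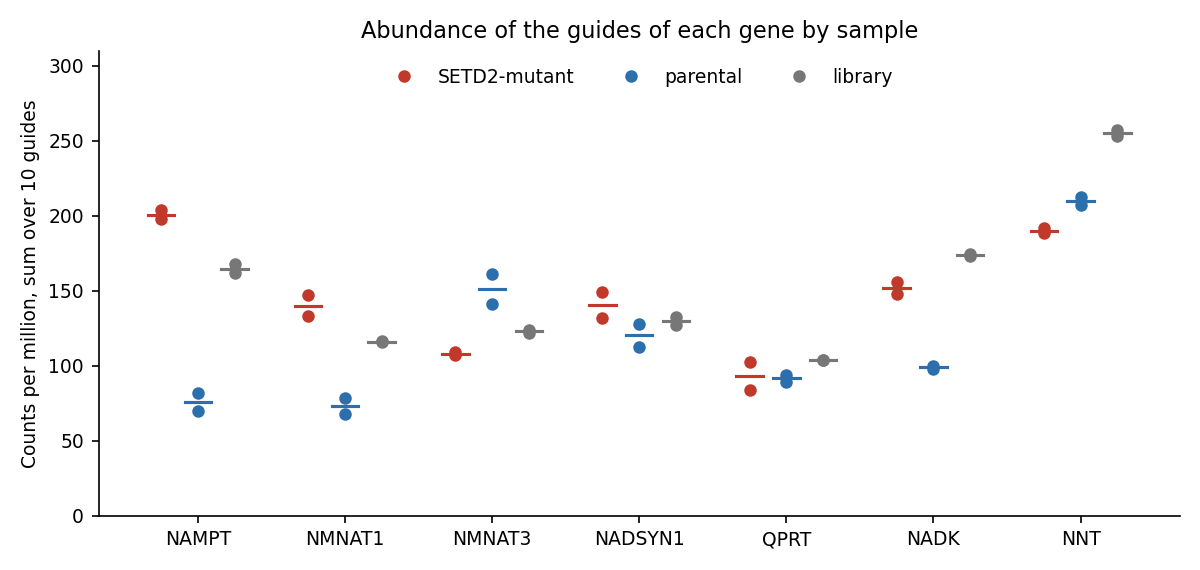
Guide abundance of the 7 genes, with the gene on the x axis and the sum over 10 guides in CPM (counts scaled to sequencing depth) on the y axis. Points are samples (2 per group) and bars their means. For NAMPT the SETD2-mutant samples lie at 198 and 204, against 81.7 and 70.0 in parental and 168 and 161 in the library samples.

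NAMPT (chromosome 7, 106248298 to 106285888 in GRCh38.p14) makes nicotinamide mononucleotide from nicotinamide and is the rate-limiting enzyme of salvage. Its guides summed to 198 and 204 CPM in SETD2-mutant samples, 81.7 and 70.0 CPM in parental samples and 168 and 161 CPM in library samples. The SETD2-mutant samples were the highest of the 6 and the parental samples the lowest, and the groups did not overlap. Between the lines the mean log2 change over guides was 1.44 (SE 0.234), a 2.71-fold higher abundance in SETD2-mutant cells, with 10 of 10 guides up. NAMPT ranked 14th from the top of 7090 genes by this change. Because this value chose the group, it is a description without a test.

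Against library, a comparison that shares samples with that one, NAMPT was depleted in parental cells by −1.29 (SE 0.243, 10 of 10 guides down, adjusted p = 0.000863 by edgeR and RRA). Low values in the parental samples favoured the choice of NAMPT, so this p-value is not independent of that choice. No call was made in SETD2-mutant cells, at 0.15 (SE 0.138, 7 of 10 guides up; edgeR with RRA, adjusted p = 1). It was called enriched in 1 of 16 alternatives, summed counts per gene (0.19, adjusted p = 0.0422), and turned to −0.78 when samples were scaled on the guides labelled dummyguide. The 2 SETD2-mutant samples stood at 0.10 and 0.18 from library on log2 CPM, and the 2 parental samples at −1.15 and −1.42. The gap between the lines was thus larger than the gap within either line.

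Single guides against NAMPT ranged from −0.72 to 0.81 in SETD2-mutant cells and from −2.32 to −0.17 in parental cells, as log2 changes from library. None of the 10 fell below −1 in SETD2-mutant cells, against 6 in parental cells. The guide that was lost most in parental cells, HZD_ODT_06132, had 26.9 and 30.9 CPM in SETD2-mutant samples, 5.35 and 4.30 CPM in parental samples and 25.1 and 23.2 CPM in library samples. It stayed near its library level in SETD2-mutant samples and was several-fold rarer in parental samples. The guide that changed least in parental cells, HZD_ODT_06133, had 12.7 and 15.5 CPM in SETD2-mutant samples, 12.7 and 9.94 CPM in parental samples and 13.1 and 12.4 CPM in library samples. For all 10 NAMPT guides both SETD2-mutant samples lay above both parental samples, which was so for 29.4% of all 71470 guides tested. This is the comparison that chose NAMPT, and its guides share their target, so nothing is read from this count.

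NMNAT1 (chromosome 1, 9942923 to 9996892) is the nuclear enzyme that joins nicotinamide mononucleotide to the adenylyl group of ATP to give NAD. Its guides summed to 133 and 147 CPM in SETD2-mutant samples, 68.0 and 78.5 CPM in parental samples and 117 and 116 CPM in library samples. As for NAMPT, the SETD2-mutant samples were the highest of the 6, the parental samples were the lowest, and the groups did not overlap. NMNAT1 was enriched between the lines, with 9 of 10 guides up (edgeR and RRA, adjusted p = 7.50e-05). The mean log2 change was 1.13 (SE 0.236), or 2.19-fold. NMNAT1 was listed with earlier results of these data known, so its p-values may not be independent of that choice. Over the 17 alternatives the change lay between 0.94 and 1.28 and the adjusted p by the same or another model between 4.18e-06 and 0.00882.

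Against library NMNAT1 stood at 0.24 (SE 0.127) in SETD2-mutant and −0.89 (SE 0.270) in parental cells, and the SETD2-mutant value turned to −0.68 with dummyguide scaling. EdgeR with RRA called neither (adjusted p = 1 for SETD2-mutant and 0.0578 for parental cells). The parental value lay near the threshold and was called in 8 of 16 alternatives, among them without library replicate 1 (adjusted p = 0.0161), without library replicate 2 (0.0116), without parental replicate 2 (0.000873) and with DESeq2 for each guide (0.0408). By sample, NMNAT1 stood at 0.16 and 0.31 from library in SETD2-mutant cells and at −1.02 and −0.78 in parental cells on log2 CPM.

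Guides against NMNAT1 ranged from −0.33 to 1.00 in SETD2-mutant cells and from −1.98 to 0.93 in parental cells, and 6 fell below −1 in parental cells and 0 in SETD2-mutant cells. HZD_ODT_06455 had 12.9 and 13.3 CPM in SETD2-mutant samples, 2.88 and 2.93 CPM in parental samples and 12.2 and 10.8 CPM in library samples. Its replicates agreed closely in each line, and its loss was seen in the parental line. The only NMNAT1 guide that was lower in SETD2-mutant cells, HZD_ODT_06450, had 14.3 and 11.6 CPM there, 18.3 and 15.7 CPM in parental samples and 8.94 and 8.98 CPM in library samples. It was above library in both lines, unlike the other 9 guides in parental cells. For 9 of the 10 guides both SETD2-mutant samples lay above both parental samples, as for 29.4% of all guides. For HZD_ODT_06450 both lay below, as for 29.8% of all guides. These guides share their target, so nothing is read from the count.

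**Figure D2:**
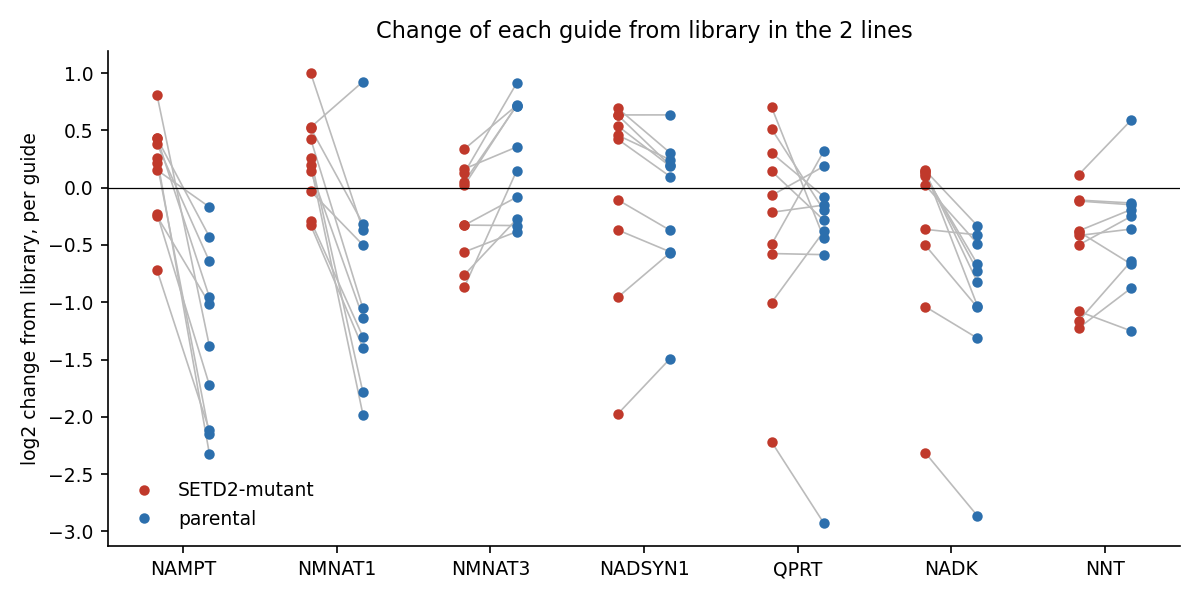
Log2 change from library (y axis) of each of the 10 guides of the 7 genes (x axis), in SETD2-mutant cells (left point of each pair) and parental cells (right point), with a line joining the same guide. Below −1 in parental cells lie 6 NAMPT and 6 NMNAT1 guides, against 0 of each in SETD2-mutant cells.

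NMNAT3 (chromosome 3, 139560180 to 139678050), described as the adenylyltransferase of mitochondria, differed in the other direction but was not called. Guide abundance was 109 and 107 CPM in SETD2-mutant samples, 141 and 161 CPM in parental samples and 124 and 122 CPM in library samples. The parental samples were the highest and the SETD2-mutant samples the lowest, without overlap. The mean change between the lines was −0.46 (SE 0.102, 9 of 10 guides down, adjusted p = 0.576 by edgeR and RRA). Limma on gene means called it depleted (−0.46, adjusted p = 0.00248), as did summed counts per gene in edgeR (−0.48, adjusted p = 0.00104). Those models called many more genes in this comparison: limma 1728 depleted and 1036 enriched, summed counts 1503 and 1417, and RRA 91 and 73. Against library NMNAT3 stood at −0.21 (SE 0.132) in SETD2-mutant and 0.25 (SE 0.158) in parental cells. The parental value turned to −0.53 with dummyguide scaling. No NMNAT3 guide fell below −1 in either line.

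QPRT and NADSYN1 lead to NAD without nicotinamide. QPRT (chromosome 16, 29679008 to 29698699) turns quinolinate from tryptophan breakdown into nicotinic acid mononucleotide. Its 10 guides totalled 103 and 83.7 CPM in SETD2-mutant samples, 93.9 and 89.4 CPM in parental samples and 104 and 103 CPM in library samples, so the sums of the lines overlapped. EdgeR with RRA did not call QPRT in any comparison, at 0.16 (SE 0.197) between the lines, −0.29 (SE 0.270) in SETD2-mutant and −0.45 (SE 0.288) in parental cells against library. Much of its negative mean came from 1 guide. HZD_ODT_08175 had 1.88 and 1.98 CPM in SETD2-mutant samples, 1.11 and 1.25 CPM in parental samples and 9.13 and 8.89 CPM in library samples. The mean of the other 9 guides, left out of any test because this guide was singled out after its values were seen, was −0.08 in SETD2-mutant and −0.18 in parental cells.

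NADSYN1 (chromosome 11, 71453203 to 71501816) amidates nicotinic acid adenine dinucleotide to NAD. Its 10 guides totalled 149 and 132 CPM in SETD2-mutant samples, 128 and 113 CPM in parental samples and 132 and 127 CPM in library samples. Both lines lay around the library level. EdgeR with RRA did not call NADSYN1 in any comparison, at 0.13 (SE 0.102) between the lines, −0.003 (SE 0.277) in SETD2-mutant and −0.13 (SE 0.196) in parental cells, and the value between the lines turned to −0.02 with dummyguide scaling. It too had 1 guide lost in both lines, HZD_ODT_06078, at −1.97 in SETD2-mutant and −1.49 in parental cells. This guide, also chosen after its values were seen, left a mean of 0.22 in SETD2-mutant and 0.02 in parental cells over the other 9.

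NADK (chromosome 1, 1751232 to 1780514) is the cytosolic kinase that makes NADP from NAD. The 10 guides came to 148 and 156 CPM in SETD2-mutant samples, 98.1 and 99.8 CPM in parental samples and 173 and 174 CPM in library samples. The groups did not overlap, with SETD2-mutant samples between parental and library samples. NADK was depleted in parental cells against library by −0.97 (SE 0.232, 10 of 10 guides down, adjusted p = 0.0101 by edgeR and RRA), but not when RRA was limited to the first 0.1 of the ranks (adjusted p = 0.344). SETD2-mutant cells gave no call, at −0.35 (SE 0.251, 4 of 10 guides down, adjusted p = 1 by edgeR and RRA). By sample it stood at −0.40 and −0.31 in SETD2-mutant and −0.95 and −1.04 in parental cells on log2 CPM.

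Between the lines all 10 NADK guides were higher in SETD2-mutant cells, with a mean of 0.62 (SE 0.105), or 1.53-fold, which edgeR with RRA did not call (adjusted p = 0.115). It was called in 5 of 17 alternatives, among them without parental replicate 1 (0.69) and without parental replicate 2 (0.60). Another was equal dropout of ribosomal protein genes, where SETD2-mutant changes from library were multiplied by 0.866 (0.66, edgeR and RRA, adjusted p = 0.00966). That setting called 1.66% of all genes enriched, beside 1.03% in the main analysis. NADK was not called in 12 alternatives, among them RRA limited to the first 0.1 of ranks (adjusted p = 0.234). NADK guides differed among themselves. HZD_KIN_03612 was lost in both lines, with 3.27 and 3.40 CPM in SETD2-mutant samples, 3.27 and 1.25 CPM in parental samples and 15.9 and 17.4 CPM in library samples. HZD_KIN_03609 followed at −1.04 in SETD2-mutant and −1.31 in parental cells. The other 8 guides, a set formed after their values were seen, lay between −0.50 and 0.15 in SETD2-mutant cells and between −1.05 and −0.33 in parental cells. Their means were −0.02 in SETD2-mutant and −0.69 in parental cells.

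NNT (chromosome 5, 43602675 to 43707396) makes NADPH in mitochondria. The 10 guides came to 192 and 188 CPM in SETD2-mutant samples, 207 and 213 CPM in parental samples and 253 and 257 CPM in library samples. Both lines lay below library, SETD2-mutant samples slightly further, without overlap. NNT was not called against library, at −0.53 (SE 0.149, 9 of 10 guides down; edgeR with RRA, adjusted p = 0.427) in SETD2-mutant and −0.39 (SE 0.158, 9 of 10 guides down, adjusted p = 1) in parental cells. With dummyguide scaling it was called depleted in SETD2-mutant (−1.45, adjusted p = 7.24e-05) and parental cells (−1.17, adjusted p = 0.00334). Between the lines it stood at −0.13 (SE 0.0850, adjusted p = 1 by edgeR and RRA).

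Counted together, edgeR with RRA called 2 of the 7 genes enriched between the lines, NAMPT and NMNAT1, and 0 depleted, where 1.03% of all 7090 genes tested were enriched and 1.28% depleted. NAMPT was chosen on this comparison, so nothing is read from the count. At an unadjusted RRA p under 0.05 there were 3 enriched and 1 depleted, where 6.84% of all genes were enriched and 7.53% depleted. Limma called 3 enriched and 2 depleted, where it called 14.6% and 24.4% of all genes, and summed counts per gene called 3 and 2, where they called 20% and 21.2%. In parental cells 2 of 7 were depleted, NAMPT and NADK, and 0 enriched, where 9.9% and 1.11% of all genes were. The parental samples also entered the choice of NAMPT, so nothing is read from this count either. At an unadjusted p under 0.05, 3 were depleted and 0 enriched, beside 12.1% and 9.38% of all genes. Limma called 5 depleted and 1 enriched, beside 31.9% and 25.6% of all genes, and summed counts per gene called 5 and 1, beside 30.3% and 29.5%. In SETD2-mutant cells 0 of 7 were called, where 9.04% of all genes were depleted and 1.11% enriched, and 0 had an unadjusted p under 0.05 in either direction, beside 12% and 10.3% of all genes. Limma called 4 of them depleted and 0 enriched there, beside 38.9% and 25.5% of all genes. Summed counts per gene called 4 depleted and 1, NAMPT, enriched, beside 32.7% and 30.2%. The 7 genes had a median change of 0.16 between the lines, beside −0.04 over all genes. Their median was −0.21 against library in SETD2-mutant cells, beside −0.05, and −0.45 in parental cells, beside −0.01.

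On mean log2 CPM over guides, 4 of the 7 genes had both SETD2-mutant samples above both parental samples (NAMPT, NMNAT1, NADK and QPRT), as had 26.9% of all genes. For 2, NMNAT3 and NNT, both lay below, as for 38.8% of all genes. For QPRT the gap between the lines was 0.04, less than the gap of 0.14 between the SETD2-mutant replicates. For NAMPT, NMNAT1 and NADK it was 1.25, 0.94 and 0.54, beside replicate gaps of at most 0.27.

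**Figure D3:**
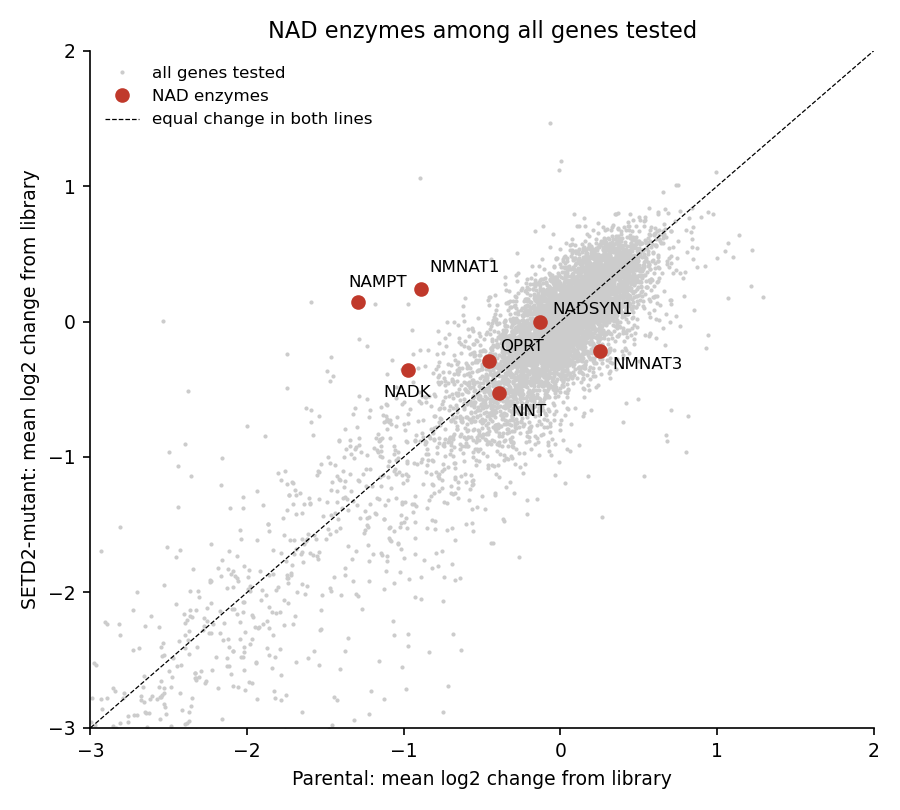
Mean log2 change from library over guides in parental (x axis) and SETD2-mutant cells (y axis), for the 7 NAD enzymes (red) and all genes tested (grey), of which 209 lie outside the axes. NAMPT, NMNAT1 and NADK lie above the dashed line of equal change, and the other 4 genes lie near it or, for NMNAT3, below it.

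In order of change from library, NNT was lowest in SETD2-mutant cells, followed by NADK, QPRT, NMNAT3, NADSYN1, NAMPT and NMNAT1. All 6 gaps between neighbours in this order were smaller than 1 SE of the gap over guides. In parental cells NAMPT was lowest, followed by NADK and NMNAT1, then QPRT, NNT, NADSYN1 and NMNAT3. Of these gaps 3 of 6 were smaller than 1 SE, and those between NMNAT1 and QPRT (0.44, SE 0.395), NNT and NADSYN1 (0.26, SE 0.252) and NADSYN1 and NMNAT3 (0.38, SE 0.252) were larger.

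Genes starting within 5 Mb of each NAD enzyme had medians between −0.15 and −0.03 between the lines, with −0.10 around NAMPT (22 genes), −0.08 around NMNAT1 (39 genes) and −0.10 around NADK (35 genes). Against library, neighbours of NAMPT had a median of −0.25 in SETD2-mutant and −0.08 in parental cells, those of NMNAT1 0.09 and 0.17, and those of NADK −0.07 and 0.03, in the same order. Neighbours of QPRT (56 genes) had a median of −0.34 in SETD2-mutant and −0.22 in parental cells, and those of NNT (11 genes) −0.25 and −0.22, beside changes of −0.29 and −0.45 for QPRT and −0.53 and −0.39 for NNT themselves. The part of the neighbourhood in these changes was not tested. Neighbours of NMNAT3 had medians of 0.12 and 0.05 and those of NADSYN1 −0.16 and −0.04. NADK came from the part of the library whose guide IDs carry KIN and the other 6 genes from the part that carries ODT. The median guide of these parts changed by −0.003 and 0.01 between the lines, by 0.05 and 0.08 against library in SETD2-mutant cells, and by 0.05 and 0.07 in parental cells.

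The genes most like NAMPT over the 4 cell samples, by Euclidean distance of mean log2 changes from library, were MED1 (0.230), TRIM28 (0.401), ITPK1 (0.444), DHODH (0.456) and TAF5L (0.474). MED1 is a subunit of the Mediator coactivator and DHODH an enzyme of pyrimidine synthesis. In SETD2-mutant cells these 5 genes stood at 0.13, −0.13, 0.32, 0.14 and −0.18 in that order, and in parental cells at −1.18, −1.29, −1.18, −1.59 and −1.23. Among those nearest to NADK were PAXIP1 (0.171), EZH2 (0.184), MTHFD2 (0.247) and SNRPA (0.251). Among the NAD enzymes themselves, NMNAT1 was the 11th of 7089 genes in distance from NAMPT (0.672) and NADK the 18th (0.830), while NMNAT3 was the 5351st (2.24). The distances were computed over 4 samples of 2 infections and share the line comparison that chose NAMPT.

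The wider NAD network was described with 5 lists of genes outside the members. Like the members, the lists were chosen with earlier results of these data known. Calls on them may thus not be independent of those results. Of 75 listed genes, 49 were measured. EdgeR with RRA called 4 of these 49 enriched between the lines and 0 depleted, with a median of 0.02. The shares of all genes, in brackets from here on, were 1.03% and 1.28%. Before adjustment 9 were enriched and 3 depleted (6.84% and 7.53%). Limma called 12 and 7 (14.6% and 24.4%), and summed counts per gene 13 and 6 (20% and 21.2%). In SETD2-mutant cells 2 were depleted and 0 enriched against library (9.04% and 1.11%). Before adjustment 7 were depleted and 3 enriched there (12% and 10.3%). Limma called 18 and 12 (38.9% and 25.5%), and summed counts 17 and 14 (32.7% and 30.2%). In parental cells 6 were depleted and 0 enriched (9.9% and 1.11%), with 7 and 5 before adjustment (12.1% and 9.38%). Limma gave 18 and 9 there (31.9% and 25.6%) and summed counts 18 and 12 (30.3% and 29.5%).

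Genes of precursor uptake and tryptophan breakdown held 0 calls in the 3 comparisons. Of all genes, 1.03% were enriched and 1.28% depleted between the lines. Against library, 9.04% were depleted in SETD2-mutant and 9.9% in parental cells, and 1.11% were enriched in each. At these shares nothing is read from 0 calls among 7 genes. The 7 measured genes included KYNU, KMO and TDO2 on the way from tryptophan to quinolinate, and ACMSD, which diverts that route away from NAD. All 7 lay between −0.11 and 0.19 between the lines. There 0 had an unadjusted p under 0.05 by edgeR and RRA, beside 6.84% of all genes enriched and 7.53% depleted. Of 7 measured genes of NAD turnover and transport, 0 were called between the lines, beside the same 1.03% and 1.28% of all genes. NNMT was enriched before adjustment, at 0.37, as were 6.84% of all genes. In parental cells 1 was depleted, beside 9.9% of all genes. This was SLC25A51, the carrier that brings NAD into mitochondria, at −1.13 (SE 0.160) in SETD2-mutant and −1.34 (SE 0.194, 7 of 7 guides down) in parental cells (edgeR and RRA, adjusted p = 0.00630). By sample it stood at −1.19 and −1.08 in SETD2-mutant and −1.39 and −1.28 in parental cells. All 4 samples lay below library, and the 0.22 (SE 0.131) between the lines was not called. The parental call did not hold with RRA limited to the first 0.1 of ranks (adjusted p = 1) or with dummyguide scaling (0.0609), and without SETD2-mutant replicate 2 the gene was also called in SETD2-mutant cells (0.00489). SLC25A51 has a near-identical paralogue, SLC25A52, at −0.59 in SETD2-mutant and −0.49 in parental cells, and guides that match both could not be told apart here.

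Among 15 measured enzymes that consume NAD, 0 were called between the lines, where 1.03% of all genes were enriched and 1.28% depleted. At these shares nothing is read from that count. Before adjustment 3 were enriched (PARP1, SIRT1 and SIRT6), beside 6.84% of all genes. PARP1, the main poly(ADP-ribose) polymerase of the DNA damage response, was depleted in both lines. Its SETD2-mutant value was −0.92 (SE 0.216, adjusted p = 0.00640 by edgeR and RRA; 0.0709 with RRA limited to the first 0.1 of ranks). The parental depletion was −1.34 (SE 0.197, adjusted p = 1.22e-05). The deacetylase SIRT1 was depleted in parental cells by −0.78 (SE 0.314, adjusted p = 0.0180 by edgeR and RRA) and stood at −0.45 (SE 0.246) in SETD2-mutant cells. Between the lines PARP1 and SIRT1 stood at 0.42 and 0.34 and were not called (edgeR and RRA, adjusted p = 0.177 and 0.106). With RRA limited to the first 0.1 of ranks the adjusted p was 0.564 and 0.913. Both were called at equal dropout of ribosomal protein genes (adjusted p = 0.0272 and 0.0124). That setting called 1.66% of all genes enriched, beside 1.03% in the main analysis.

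NADPH producers held 2 enriched genes of 10 between the lines and 0 depleted, beside 1.03% and 1.28% of all genes. PGD and MTHFD2L were depleted before adjustment. PGD, an enzyme of the pentose phosphate pathway, was depleted in both lines, by −3.93 (SE 0.367) for SETD2-mutant and −2.74 (SE 0.260) for parental cells, and was not called between the lines at −1.19 (SE 0.307, adjusted p = 0.229 by edgeR and RRA). The folate enzymes MTHFD1 and MTHFD2 were enriched by 1.54 (SE 0.311) and 0.70 (SE 0.175). Both were depleted in parental cells, by −2.50 and −0.94, and not called in SETD2-mutant cells, at −0.96 and −0.24. MTHFD2 lost its call between the lines without parental replicate 1 (adjusted p = 0.183), without parental replicate 2 (0.0596) and without SETD2-mutant replicate 1 (0.103), and its parental call was lost in 6 alternatives, among them without parental replicate 1 (0.0980) and without SETD2-mutant replicate 2 (0.0652). MTHFD1 was called depleted in SETD2-mutant cells without parental replicate 1 (0.00478) and without parental replicate 2 (0.00473).

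Enzymes and carriers that move NADH electrons between compartments held 2 enriched genes of 10 between the lines and 0 depleted. The shares of all genes were 1.03% and 1.28%. GPD1 was depleted before adjustment, at −0.80 (SE 0.215). MDH2, the mitochondrial malate dehydrogenase, rose by 0.78 (SE 0.137) with all 10 guides up (edgeR and RRA, adjusted p = 0.000666), and the cytosolic aspartate aminotransferase GOT1 by 0.57 (SE 0.0889, 10 of 10 guides up, adjusted p = 0.0180). MDH2 stood at 0.54 and 0.45 from library in SETD2-mutant samples and −0.31 and −0.25 in parental samples. GOT1 stood at 0.36 and 0.20 in SETD2-mutant samples and −0.26 and −0.30 in parental samples, and its call was lost without parental replicate 1 (adjusted p = 0.258) and with RRA limited to the first 0.1 of ranks (0.118). The other measured members of the malate-aspartate shuttle were not called, with MDH1 at −0.01, GOT2 at −0.23, SLC25A11 at 0.35, SLC25A12 at 0.16 and SLC25A13 at −0.01 between the lines.

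**Figure D4:**
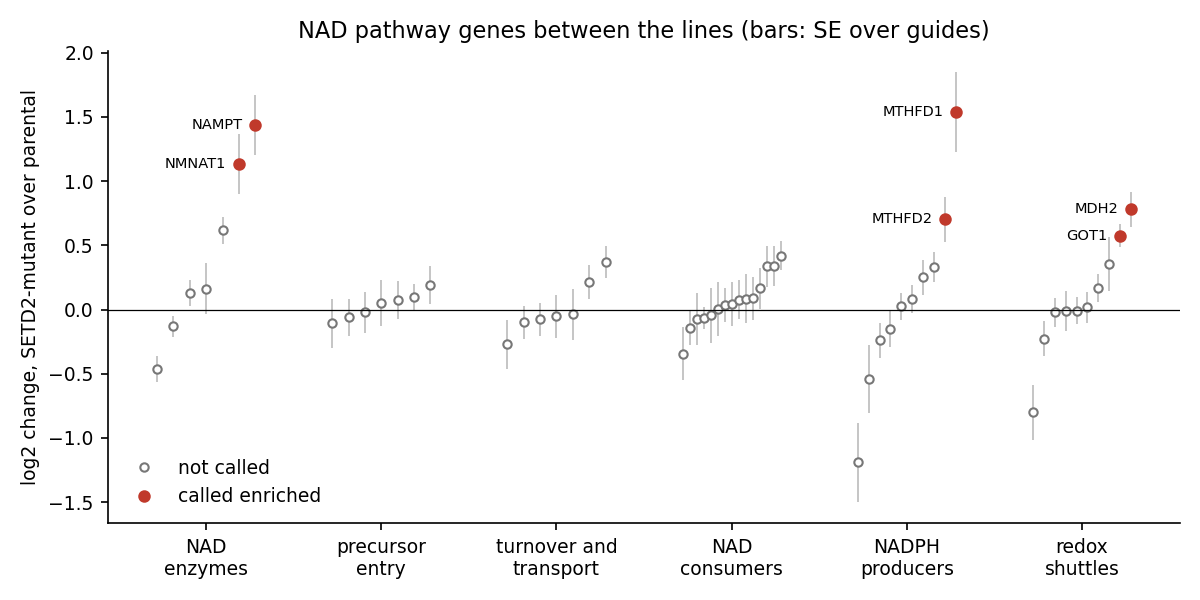
Mean log2 change over guides, SETD2-mutant over parental (y axis), for the 7 NAD enzymes and 5 lists of related genes (x axis), with bars of 1 SE over guides. Filled points were called enriched by edgeR and RRA: 2 NAD enzymes, 2 NADPH producers and 2 shuttle enzymes. NAMPT is shown though its change was used to choose the group.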

How the data were processed

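Guides of the 7 genes were read from a table of raw counts per guide that the authors deposited, with 71626 guides in 6 samples. The submitters' processing notes name the tool MAGeCK and the build hg38, whose role and version are not given in the sources used here. Members and gene lists were chosen with earlier results of these data known. Guides needed a library count averaging at least 30 (71470 passed and 56 were set aside), and 100 guides labelled dummyguide were left out of the tests. After TMM scaling, edgeR 4.0.16 (R 4.3.3) was run on each guide (glmQLFit robust, glmQLFTest, 6 samples by group). Changes per sample are log2 CPM with a prior count of 2. Genes were scored from guide ranks with robust rank aggregation (RRA), which asks whether the guides of a gene crowd at 1 end of the list, with a rank share limit of 0.25 and its exact null distribution. P-values of the 7090 genes with 3 or more guides took a Benjamini-Hochberg adjustment, separate for each direction, with calls below 0.05. The text names every member, up to 4 called genes of each list and the 5 genes nearest to NAMPT and to NADK among those with at least 8 guides. Same-numbered replicates did not deviate together across groups (correlations of −0.005, −0.003 and −0.005), so they were not paired. Alternatives used DESeq2 1.42.0 and limma 3.58.1 among others. The scoring was tested on simulated data. Gene coordinates are from RefSeq, GRCh38.p14. Guide sequences were not used here, and some genes, left out of the lists and of the nearest genes, are not reported here.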

Additional observations from a re-analysis of the deposited data

Results flagged for a closer look

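In the test of the difference between the lines, the change from library differed for 12 of the named genes. All had a higher value in SETD2-mutant than in parental cells. Of all genes, 1.03% were called enriched and 1.28% depleted. The list genes considered here were those with a call in any comparison, and others were named for likeness to NAMPT or NADK. Nothing is therefore read from this count or its direction. Of the NAD enzymes, the genes that differed were NAMPT (1.44, which chose the group) and NMNAT1 (1.13). Of the related lists they were MTHFD1 (1.54), MTHFD2 (0.70), MDH2 (0.78) and GOT1 (0.57), where the values are log2 changes, SETD2-mutant over parental. The genes named for their likeness to NAMPT, DHODH (1.74), ITPK1 (1.4997), MED1 (1.31), TRIM28 (1.16) and TAF5L (1.05), and PAXIP1 (0.54), named for its likeness to NADK, had to resemble these values by the way they were found. The call of PAXIP1 was lost in 5 alternatives by edgeR and RRA: RRA limited to the first 0.1 of ranks (adjusted p = 0.292), dummyguide scaling (0.0548), without parental replicate 1 (0.113), without parental replicate 2 (0.0696) and without SETD2-mutant replicate 1 (0.366).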

How the results depend on the processing

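There were 17 alternatives for the line comparison and 16 for each comparison with the library. The lowest count of a member's guide was 42, and limits of depth were not tested. Between the lines NAMPT, whose value chose the group and is given without a test, lay between 1.29 and 1.59, and NMNAT1 between 0.94 and 1.28, called in all 17. Scaling on dummyguide counts moved the median of all genes by −0.15 between the lines and, against library, by −0.92 for SETD2-mutant and −0.78 for parental cells. It turned values of SETD2-mutant against library for NAMPT (−0.78), NMNAT1 (−0.68), MDH2 (−0.42), GOT1 (−0.63), MED1 (−0.79), ITPK1 (−0.60) and DHODH (−0.78), of NMNAT3 in parental cells (−0.53) and of NADSYN1 between the lines (−0.016). With it 4 members were depleted in parental cells (8.93% of all genes), and 1 member and 4 pathway genes in SETD2-mutant cells (7.76% of all genes). At an RRA rank share limit of 0.1, 1 member and 4 pathway genes were depleted in parental cells (7.42% of all genes) and 1 pathway gene in SETD2-mutant cells (6.32%). The cause was not tested. With the replicate block 1 pathway gene was enriched in SETD2-mutant cells (1.18% of all genes). NMNAT1 was then depleted in parental cells (−0.91, adjusted p = 0.0164 by edgeR and RRA). The counts of members called between the lines were the same, where 1.18% of all genes were enriched and 1.24% depleted. NADSYN1 in SETD2-mutant cells turned to 0.0315 without library replicate 1, ranged from −0.0967 to 0.0723 with 1 sample left out (highest without SETD2-mutant replicate 2), and turned to 0.0218 with summed counts, where SNRPA turned to 0.000275. With 1 sample left out, a lone sample is assumed to vary like the other groups, so counts of genes called in those fits are not compared here. Models on gene means and summed counts do not use the spread between guides and called 14.6% to 38.9% of all genes in each direction. Limma on gene means and summed counts called 2 and 2 members and 7 and 6 pathway genes depleted, and 12 and 13 pathway genes enriched, between the lines. In SETD2-mutant cells they called 4 and 4 members and 18 and 17 pathway genes depleted, and 12 and 14 pathway genes enriched, and summed counts called 1 member, NAMPT, enriched. In parental cells they called 5 and 5 members and 18 and 18 pathway genes depleted, and 1 and 1 members and 9 and 12 pathway genes enriched.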
